A study of Homo sapiens with 6 samples.

Results

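The platelet-derived growth factor (PDGF) genes are 4 ligand genes (Pdgfa, Pdgfb, Pdgfc and Pdgfd) and 2 receptor genes (Pdgfra and Pdgfrb), and they were picked by symbol as a complete family from a count table of 21872 gene rows. All 6 were found and all 6 had enough counts for the fit of 12293 genes, although Pdgfrb passed the filter on low counts only through its counts in HuR knockout libraries. Pdgfb, with 29, 9 and 9 counts in knockout libraries, passed that filter through its counts in control libraries. RNA came from MOC2, a mouse oral squamous carcinoma line, in 3 HuR knockout libraries and 3 control libraries. Knockout cells had received lentiviral CRISPR/Cas9 particles against HuR, and control cells had received control CRISPR/Cas9 particles, both at 25 MOI for 18 h with 72 h of further culture. HuR is the RNA-binding protein encoded by Elavl1. The titles call the same libraries knockdown, and the labels mention isolation of 1 clone, so that effects of HuR loss and of that clone cannot be told apart. No label says that replicates came from separate clones or cultures, and p-values therefore measure the spread between these libraries, which may be technical. The sample labels name human as the species, while the row names and the series title are those of mouse.

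PDGF ligands are secreted dimers that bind 2 related receptor tyrosine kinases. The alpha receptor binds the A, B and C chains, and the beta receptor binds the B and D chains. Epithelial and tumour cells commonly secrete the ligands, and fibroblasts and the mural cells of vessels (pericytes and smooth muscle) commonly carry the receptors. The A and B chains are cut inside the cell by furin-like convertases, whereas the C and D chains leave the cell as latent proteins that extracellular proteases must cut.

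Each library held between 16158516 and 21294330 counts. Values are given as CPM, counts scaled to the library's TMM-adjusted total (the usual CPM unit), without correction for gene length, so that they compare libraries and not genes. Elavl1 mRNA had 116, 114 and 105 CPM in knockout libraries 1, 2 and 3, against 107, 120 and 117 CPM in control libraries, so its level does not check the labels. Knockout library 3 stood apart from the other knockout libraries, with correlations of log2 CPM of 0.924 and 0.931 against 0.978 between knockout libraries 1 and 2. Knockout library 1 was nearest to the control libraries, with correlations of 0.856 to 0.864, against 0.806 to 0.815 for knockout library 2 and 0.726 to 0.738 for knockout library 3. Members were chosen with results of this contrast already known, and their differences are given as a description. They are log2 fold changes from the fit, with standard errors (SE) derived from its test statistic.

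Among the ligands, Pdgfb was far lower in knockout cells and Pdgfa was at nearly the same level in both groups. Pdgfb, which encodes the B chain, the ligand of both receptors, had 1.58, 0.441 and 0.551 CPM in knockout libraries 1, 2 and 3. In control libraries 1, 2 and 3 it had 39.1, 25.9 and 25.6 CPM. The groups lay far apart, and the 3 knockout values rested on 29, 9 and 9 counts. The log2 fold change of Pdgfb was -5.13 (SE 0.514), or 35-fold lower (n = 3 each). It came to 60.6-fold lower without knockout library 1, which held most of the remaining counts.

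Pdgfa, which encodes the A chain, a ligand of the alpha receptor, had 70.5, 46.5 and 63.9 CPM in knockout libraries 1, 2 and 3 and 64.9, 63.2 and 60.9 CPM in control libraries. The groups overlapped, with the highest and the lowest value of the 6 both in knockout cells. The means were 60.3 ± 12.4 CPM in knockout and 63 ± 2.02 CPM in control (SD, n = 3 each), with a log2 fold change of -0.06 (SE 0.172). The A and B chains, which form homodimers and a mixed dimer, thus differed in their readout: the count of Pdgfb for each count of Pdgfa was 0.0224, 0.00948 and 0.00862 in knockout libraries and 0.602, 0.41 and 0.421 in control libraries. Such a ratio within a library does not depend on how libraries are scaled.

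Of the latent ligands, Pdgfc was higher and Pdgfd lower in knockout cells. Pdgfc, which encodes the C chain, a ligand of the alpha receptor, had 14, 22.1 and 34.4 CPM in knockout libraries 1, 2 and 3 and 6.88, 9.43 and 10.6 CPM in control libraries. Every knockout value was above every control value, and knockout values spread over a wider range. The means were 23.5 ± 10.3 CPM in knockout and 8.96 ± 1.89 CPM in control (SD, n = 3 each), and the log2 fold change was 1.39 (SE 0.356), or 2.62-fold higher. Without knockout library 3, the highest of the 6, it was 1.01.

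Pdgfd, which encodes the D chain, a ligand of the beta receptor, was low throughout. It had 0.817, 1.72 and 1.84 CPM in knockout libraries 1, 2 and 3, from 15, 35 and 30 counts, and 2.76, 2.8 and 2.13 CPM in control libraries, from 59, 57 and 35 counts. The groups did not overlap, but the highest knockout and the lowest control value lay close together, and their 95% counting intervals (exact Poisson) overlapped at 1.24 to 2.62 CPM in knockout and 1.48 to 2.96 CPM in control. The log2 fold change of Pdgfd was -0.82 (SE 0.387), or 1.76-fold lower, and it did not pass (edgeR adjusted p = 0.146). The count of Pdgfd for each count of Pdgfc was 0.0584, 0.0778 and 0.0535 in knockout libraries and 0.401, 0.297 and 0.201 in control libraries, so this pair of latent ligands stood further apart in every knockout library than in any control library.

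**Figure D1:**
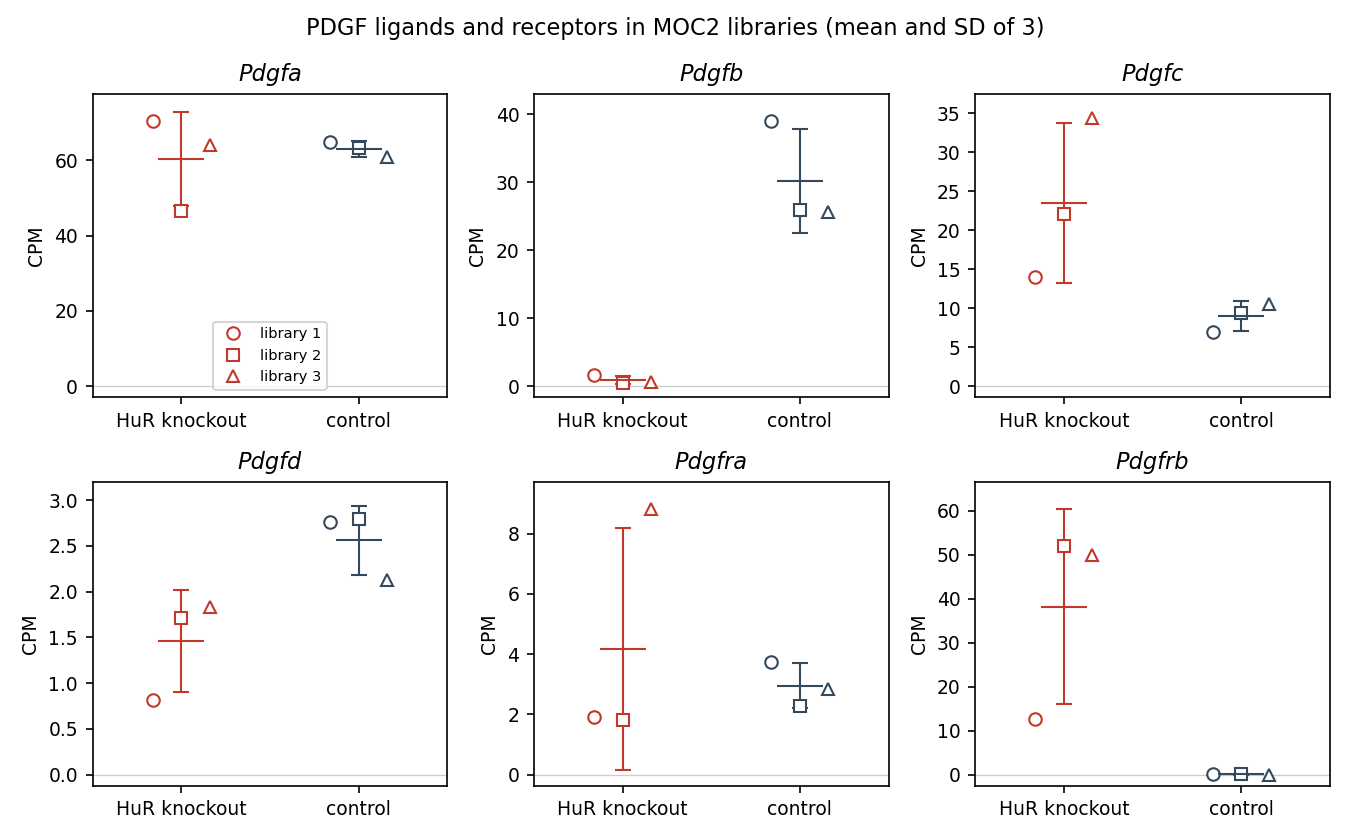
CPM of the 6 PDGF genes (y axis, linear, 1 panel a gene) in 3 HuR knockout and 3 control libraries. Symbols are single libraries, horizontal bars are means and vertical bars are SD. Pdgfb lies at 1.58 CPM or below in knockout and at 25.6 CPM or above in control, while Pdgfrb lies between 12.6 and 51.9 CPM in knockout and near 0 in control.

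The beta receptor was the member with the largest difference. Pdgfrb, the receptor for the B and D chains and a marker of mural cells and fibroblasts, had 12.6, 51.9 and 50 CPM in knockout libraries 1, 2 and 3, from 232, 1060 and 817 counts. Control libraries 1 and 2 held 1 count each (0.0468 and 0.0491 CPM) and control library 3 held 0 of its 16158516 counts, which allows up to 0.182 CPM at a floor of 3 counts. Knockout library 1 stood below the other knockout libraries beyond counting error, with a 95% interval of 11.1 to 14.4 CPM against 48.9 to 55.2 and 46.7 to 53.6 CPM. Summed over each group, Pdgfrb had 2109 counts in knockout and 2 in control, a ratio of 1110 after scaling (exact 95% counting interval 308 to 9200). These intervals and floors cover counting error only. In bulk RNA, more cells that carry a transcript and more of it in each cell cannot be told apart.

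The alpha receptor did not follow the beta receptor. Pdgfra, the receptor for the A, B and C chains, had 1.91, 1.81 and 8.82 CPM in knockout libraries 1, 2 and 3 and 3.74, 2.26 and 2.86 CPM in control libraries. Knockout libraries 1 and 2 were below every control library and knockout library 3 was above them all. The log2 fold change was 0.49 (SE 0.669) over all libraries and -0.67 (SE 0.357) without knockout library 3, so its direction rested on that library. The count of Pdgfrb for each count of Pdgfra was 6.63, 28.6 and 5.67 in knockout libraries and 0.0125, 0.0217 and 0 in control libraries, without correction for length. The receptor transcripts counted were therefore nearly all Pdgfra in control, and mostly Pdgfrb in each knockout library.

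**Figure D2:**
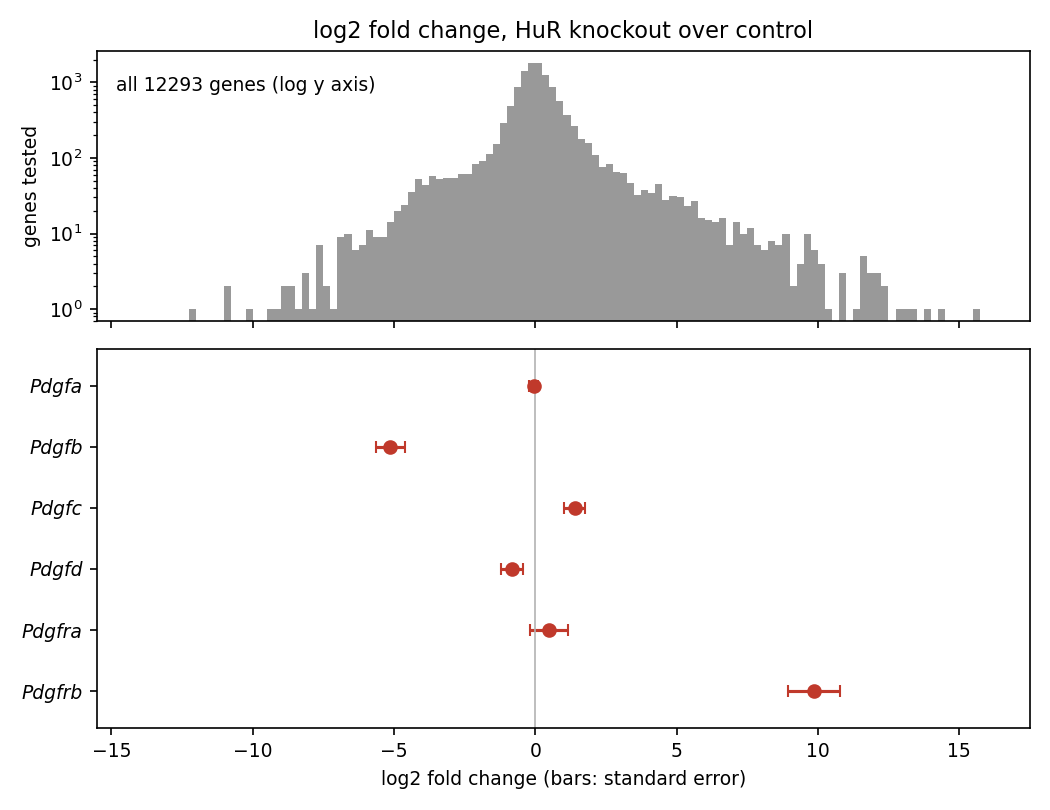
The upper panel is a histogram of log2 fold changes, HuR knockout over control, for the 12293 genes tested (y axis logarithmic). The lower panel gives the 6 PDGF genes on the same x axis, with points for log2 fold changes and bars for standard errors; Pdgfrb at 9.87 and Pdgfb at -5.13 lie in the tails and the other 4 lie between -0.82 and 1.39.

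Over the family, 3 of 6 genes were past an adjusted p of 0.05 in edgeR's quasi-likelihood test, where 35.7% of all genes tested were. These were Pdgfc and Pdgfrb on the higher side, where 20.3% of all genes tested stood, and Pdgfb on the lower side, where 15.4% stood. The CPM ranges of knockout and control were separate for 4 of 6 genes, and for 57.6% of all genes tested. As the members were chosen with this contrast known, nothing is read from these counts. Pdgfrb entered the fit only through its knockout counts and Pdgfb through its control counts. Only a rise could therefore be called for Pdgfrb and only a fall for Pdgfb. The call of Pdgfc did not hold without control library 1, 2 or 3 (log2 fold changes of 1.22, 1.4 and 1.5) or without knockout library 2 (1.43). By fitted fold change, Pdgfrb ranked 31 from the top and Pdgfb 91 from the bottom of the 12293 genes. The receptors varied most between knockout libraries: the SD of log2 CPM there was 1.26 for Pdgfra and 1.16 for Pdgfrb, above 95.3% and 93.9% of all genes tested. For Pdgfa it was 0.313 in knockout, above 47.7% of genes, and 0.0464 in control, above 9.76%.

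The genes around the family were taken from 5 lists. Proteases that activate PDGF ligands and proteins that bind PDGF or its receptors split in direction. Of 14 genes tested, 5 rose, 4 fell and 5 did not pass (64.3% called, against 35.7% of all genes tested), with a median log2 fold change of 0.14 against 0.03 over all genes tested. All 4 that fell were proteases. Without control library 2, 3 genes of this list rose. St14, which encodes matriptase, a protease able to activate the D chain, fell to 23.9, 8.53 and 8.94 CPM in knockout libraries, against 270, 216 and 213 CPM in control libraries (log2 fold change -4.08, SE 0.456, edgeR adjusted p = 0.00142), and it was 26.7-fold lower without knockout library 1 where it was 16.9-fold lower over all. Plau, urokinase, which also cuts the D chain, averaged 12.7 ± 6.47 CPM in knockout and 126 ± 33.5 CPM in control (SD, n = 3 each; edgeR adjusted p = 0.00253).

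The convertases differed among themselves. Pcsk6, a furin-like convertase, averaged 5.14 ± 1.56 CPM in knockout and 34.3 ± 3.3 CPM in control, 6.66-fold lower (SD, n = 3 each; edgeR adjusted p = 0.00081). Pcsk5, of the same family, had 3 counts in all knockout libraries and 361 in control libraries. By summed counts it was 114 times lower (counting interval 38.7 to 555), and 228 times lower (40.6 to 9030) without knockout library 1. Its fitted change was 101-fold lower (edgeR adjusted p = 0.000645). Pcsk5 passed the filter on low counts only through its control counts, so only a fall could be called for it. Furin itself had 94.9, 118 and 138 CPM in knockout libraries and 104, 115 and 119 CPM in control libraries (edgeR adjusted p = 0.803). Plat, tissue plasminogen activator, the protease known to activate the C chain, had 54.9, 58.9 and 35.6 CPM in knockout libraries and 37.2, 8.99 and 17.9 CPM in control libraries, and did not pass (edgeR adjusted p = 0.102).

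Several PDGF binding proteins rose. Sparc, a matrix protein that binds PDGF, had 1444, 1600 and 1290 CPM in knockout libraries and 58.6, 34.7 and 52.8 CPM in control libraries (log2 fold change 4.89, SE 0.254, edgeR adjusted p = 0.000205). Lrp1, an endocytic receptor that associates with the beta receptor, averaged 565 ± 290 CPM in knockout and 48.3 ± 24.3 CPM in control (SD, n = 3 each; edgeR adjusted p = 0.00532). The co-receptor Nrp1 averaged 69 ± 32.9 CPM in knockout and 9.69 ± 1.95 CPM in control (SD, n = 3 each; edgeR adjusted p = 0.00306). Thus Sparc, Lrp1 and Nrp1 were higher in all 3 knockout libraries than in any control library. The CPM ranges of the groups were separate for 57.6% of all genes tested. Thbs1 and Pdap1, of the same list, overlapped between groups and did not pass (edgeR adjusted p = 0.538 and 0.336).

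The genes that relay the signal from an active receptor changed in both directions. Of 26 receptor-proximal effectors tested, 7 rose, 5 fell and 14 did not pass, with a median log2 fold change of 0.01. The share called was 46.2%, against 35.7% of all genes tested. Pik3cb, a catalytic subunit of PI 3-kinase, had 19.9, 14.7 and 18.9 CPM in knockout libraries and 73.9, 74.4 and 74 CPM in control libraries, 4.16-fold lower (edgeR adjusted p = 0.000444). Pik3r1, the regulatory subunit p85 alpha that docks on the phosphorylated receptors, averaged 179 ± 92.7 CPM in knockout and 19.7 ± 2.07 CPM in control, 9.09-fold higher (SD, n = 3 each; edgeR adjusted p = 0.00221).

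Of the adaptors and kinases, Shc1, an adaptor that links receptors to RAS, rose 2.55-fold to 265 ± 40.9 CPM in knockout, against 104 ± 2.89 CPM in control (SD, n = 3 each; edgeR adjusted p = 0.00119). The tyrosine kinase Src fell 2.13-fold to 82 ± 2.56 CPM in knockout, against 175 ± 19.5 CPM in control (SD, n = 3 each; edgeR adjusted p = 0.00154). The adaptor Grb7 fell 12-fold to 5.83 ± 3.53 CPM in knockout, against 69.8 ± 8.3 CPM in control (SD, n = 3 each; edgeR adjusted p = 0.00173), and 18.3-fold without knockout library 1. The central adaptor Grb2 had 117, 108 and 98.5 CPM in knockout libraries and 133, 138 and 125 CPM in control libraries and did not pass (edgeR adjusted p = 0.0994). Without control library 1, 2 or 3 the number of these effectors that rose was 4, 3 and 3.

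Of 8 phosphatases and ubiquitin ligases known to attenuate the receptors, 2 rose, 1 fell and 5 did not pass (median log2 fold change -0.16, 37.5% called against 35.7% of all genes tested). The CBL ubiquitin ligases, which tag active receptors for degradation, took different directions. Cblb had 80.8, 83.9 and 182 CPM in knockout libraries and 17.4, 15.6 and 20 CPM in control libraries, 6.55-fold higher (edgeR adjusted p = 0.00236). Cblc, the epithelial CBL gene, had 3.27, 0.637 and 1.65 CPM in knockout libraries and 50.6, 33.4 and 35.2 CPM in control libraries, 21.5-fold lower (edgeR adjusted p = 0.00206) and 35.3-fold lower without knockout library 1. Cbl itself overlapped between groups (edgeR adjusted p = 0.354). Ptprj, a phosphatase that acts on the beta receptor, rose 2.07-fold to 51 ± 12.5 CPM in knockout, against 24.7 ± 2.91 CPM in control (SD, n = 3 each; edgeR adjusted p = 0.0102), and did not pass without control library 2 (adjusted p = 0.0571), when 1 gene of this list rose. Without knockout library 3, 2 fell.

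Of 22 genes that growth factors such as PDGF are known to induce in fibroblasts, 21 were tested, and 3 rose, 3 fell and 15 did not pass. The share called was 28.6%, against 35.7% of all genes tested, and the median log2 fold change was 0.75. Egr3, an immediate early transcription factor, had 12.1, 18.8 and 31.8 CPM in knockout libraries and 2.39, 1.57 and 4.31 CPM in control libraries, 7.61-fold higher (edgeR adjusted p = 0.00628). Egr2, of the same family, had 1.69, 2.6 and 13.9 CPM in knockout libraries and 0.421, 0.0491 and 0.122 CPM in control libraries, 28.9-fold higher (edgeR adjusted p = 0.0178). Egr2 passed the filter on low counts only through its knockout counts, so only a rise could be called for it. Its size rested on single libraries, at 10.3-fold higher without knockout library 3 and 67.5-fold higher without control library 1, and it did not pass without control library 2 or 3 (adjusted p = 0.0712 and 0.0766).

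Sphk1, sphingosine kinase, had a log2 fold change of 1.35 (edgeR adjusted p = 0.0118) and did not pass without control library 1, 2 or 3 (adjusted p = 0.0521, 0.0546 and 0.0525). Myc averaged 174 ± 10.1 CPM in knockout and 257 ± 18.8 CPM in control, 1.48-fold lower (SD, n = 3 each; edgeR adjusted p = 0.0129), and did not pass without control library 2 or 3 (adjusted p = 0.0615 and 0.0543). Fos, the best known gene of the set, had 206, 4.21 and 372 CPM in knockout libraries and 225, 5.84 and 50 CPM in control libraries and did not pass (edgeR adjusted p = 0.623). Without control library 2 or 3, 1 gene of the set rose, and 7 rose without knockout library 2. Without control library 1 or 2, 1 fell, and 0 fell without control library 3, where the full fit with all libraries had 3.

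The receptors nearest in structure to the PDGF receptors are KIT, CSF1R and FLT3, followed by the VEGF receptors, whose ligands are relatives of the PDGF chains. Of 16 symbols in this list 15 were in the table and 12 were tested; 8 rose, 2 fell and 2 did not pass (83.3% called against 35.7% of all genes tested, median log2 fold change 1.44). A gene with too few counts in a group was tested only because of its counts in the other group. Vegfd had 5, 4 and 3 counts in control libraries, so only a rise could be called for it. Flt3 had 9, 14 and 16 counts in knockout libraries, so only a fall could be called for it. The symbols include an older name of Vegfd. Among the receptors, Flt1, a VEGF receptor, had 208, 163 and 259 CPM in knockout libraries and 26.2, 14.8 and 27.7 CPM in control libraries, 9.17-fold higher (edgeR adjusted p = 0.000835). Flt3 fell to 0.719 ± 0.246 CPM in knockout, against 6.93 ± 1.2 CPM in control (SD, n = 3 each; edgeR adjusted p = 0.00122). Flt4, the receptor for VEGF-C and VEGF-D, fell to 1.76 ± 0.553 CPM in knockout, against 12.5 ± 2.74 CPM in control (SD, n = 3 each; edgeR adjusted p = 0.00139).

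Csf1r, which lies next to Pdgfrb in the mouse genome, did not share its level. It had 0.164, 0 and 0.0612 CPM in knockout libraries and 0.468, 0.246 and 0.243 CPM in control libraries and was too low to test. Kit and Kdr, which are neighbours of Pdgfra, were also too low to test, with at most 0.306 and 0.109 CPM in any knockout library and 0.281 and 0.365 CPM in any control library. Of the 3 neighbours, none reached 0.5 CPM in any library.

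Most of the ligands in the list were higher in knockout cells. Vegfd, a VEGF ligand of the same fold as PDGF, had 3.92, 11.3 and 10.2 CPM in knockout libraries and 0.234, 0.197 and 0.182 CPM in control libraries, 40.1-fold higher (edgeR adjusted p = 0.00107). With so few control counts, only a rise could be called for Vegfd. Kitl, the ligand of KIT, rose 5.15-fold to 207 ± 61.5 CPM in knockout, against 40.1 ± 6.66 CPM in control (SD, n = 3 each; edgeR adjusted p = 0.00134). Csf1, a ligand of CSF1R, rose 2.48-fold to 74.3 ± 14.5 CPM in knockout, against 30 ± 3 CPM in control (SD, n = 3 each; edgeR adjusted p = 0.00292). Kitl and Csf1 thus rose in cells whose own Kit and Csf1r transcripts stayed near 0. Vegfa overlapped between groups (edgeR adjusted p = 0.909).

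Since Pdgfrb marks mural cells and fibroblasts, markers of those cells were set beside it. Of 13 mural markers 5 were tested, and 3 rose and 1 fell, where 20.3% of all genes tested rose and 15.4% fell. The summed level of the 13 was 92.6 to 178 CPM in knockout libraries and 8.84 to 18.2 CPM in control libraries. In knockout libraries most of that sum was Notch3, a receptor of mural cells, with 78.6, 115 and 167 CPM in knockout libraries against 8.19, 3.14 and 4.01 CPM in control libraries (edgeR adjusted p = 0.00109). Cspg4, the NG2 proteoglycan of pericytes, had 7.08, 3.58 and 1.1 CPM in knockout libraries, against 0.234, 0.147 and 0.365 CPM in control libraries (edgeR adjusted p = 0.0103; 9.43-fold higher without knockout library 1 and 15.7-fold higher over all; adjusted p = 0.0523 without control library 2). Des, the muscle filament desmin, had 0.599, 0.588 and 1.16 CPM in knockout libraries, against 0.0936, 0 and 0.0608 CPM in control libraries (edgeR adjusted p = 0.0112; 22.8-fold higher without control library 1 and 13.5-fold higher over all; adjusted p = 0.0564 without control library 3). Cspg4 and Des passed the filter on low counts only through their knockout counts, so only a rise could be called for them. Anpep fell to 1.31 ± 0.655 CPM in knockout, against 4.92 ± 2.4 CPM in control (mean ± SD of 3 libraries, edgeR adjusted p = 0.0405). Mcam overlapped between groups and did not pass (edgeR adjusted p = 0.201). Of the 13, 6 stayed under 1 CPM in every library, among them Higd1b at 0 and, in knockout libraries, Acta2 at most 0.0612 CPM and Rgs5 at most 0.147 CPM. Of 11 fibroblast markers 4 were tested and 3 rose, where 20.3% of all genes tested did. The sum of the 11 was 1560 to 5420 CPM in knockout and 672 to 805 CPM in control, mostly Fn1. Col3a1, a fibrillar collagen chain, had 216, 233 and 229 CPM in knockout libraries, against 0.608, 0.737 and 0.851 CPM in control libraries (edgeR adjusted p = 1.5e-05), and Col1a1 rose as well (edgeR adjusted p = 0.00158). Col1a2 had at most 0.1225 CPM in any library. Loxl1 averaged 0.921 CPM in knockout and 1.95 CPM in control and did not pass (edgeR adjusted p = 0.137). Lum had no count, and Dcn, Postn, Thy1, Fap and Pdpn stayed under 1 CPM in every library.

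Of the 8 endothelial and 8 leukocyte markers, 1 of each was tested and neither passed, and Ptprc, the general leukocyte marker, had 0 counts in every knockout library. The leukocyte marker tested, Cd68, was high in knockout library 3 alone. It had 3.11, 1.76 and 36.9 CPM in knockout libraries and 5.8, 2.16 and 3.65 CPM in control libraries (edgeR adjusted p = 0.248). Of 10 epithelial markers 9 were tested and 7 fell, where 15.4% of all genes tested did. Krt14 and Dsp did not pass (edgeR adjusted p = 0.0873 and 0.221). Krt5, too low to test, went the other way. It had 2.29, 0.49 and 0.184 CPM in knockout libraries and 0.0468, 0.0491 and 0 CPM in control libraries. The sum of the 10 was 3040 to 4540 CPM in knockout and 8840 to 11200 CPM in control. Cldn4, a tight junction protein, was 22.4-fold lower (39-fold without knockout library 1), Epcam 14.7-fold lower and Cdh1, which encodes E-cadherin, 13.4-fold lower (edgeR adjusted p = 0.00185, 0.000645 and 0.000694). The keratins of simple epithelia Krt8, Krt18 and Krt7 fell less, by 1.04, 1.93 and 1.15 on the log2 scale, and were present in both groups; Krt8 did not pass without control library 1 or 2 (adjusted p = 0.0594 and 0.0513). The part of these marker shifts in the PDGF values was not tested.

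Each member was also set beside the other 11916 tested genes with ordinary symbols, by the distance between profiles of log2 CPM centred on the control mean over the 6 libraries. These are descriptions over 2 groups that share libraries. The neighbours were picked by this distance, so a shared order of libraries follows from the pick and is not a separate result. Nearest to Pdgfrb were Ogn (osteoglycin, distance 0.48, Pearson's r = 0.999), Agt (angiotensinogen, 0.94, r = 0.996) and the interferon-inducible Ifitm1 (1.07, r = 0.997). Ogn had 9.7, 37.6 and 43.9 CPM in knockout libraries 1, 2 and 3, so that it shared the low value of knockout library 1, and both Ogn and Agt had 0 counts in every control library. Ogn and Agt stood in rows whose deposited values were divided by 11.

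Nearest to Pdgfb were Sdr39u1 (distance 0.55, r = 0.998), the chemokine gene Ccl20 (0.6, r = 0.996) and Eml2 (0.62, r = 0.997). All 3 kept their highest knockout value in knockout library 1, as Pdgfb did, with 1.14, 0.164 and 3.87 CPM. The knockout values of Ccl20 rested on 3, 0 and 1 counts. Near to Pdgfc were Zfp612 and Ston1 (distance 0.28 for each). Ston1 had 45.8, 77 and 111 CPM in knockout libraries and 26.9, 31 and 31.8 CPM in control libraries, the same order of libraries as Pdgfc.

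For the other members, the neighbours picked in this way shared the knockout library in which the member was highest or lowest. Near to Pdgfra were Hdac11 and Fam102a (distances 0.33 and 0.42), each highest in knockout library 3, at 33.6 and 27.9 CPM. Nearest to Pdgfd were Marveld3, Nuak2 and Mob3b (0.36, 0.4 and 0.45), each lowest in knockout library 1, at 8.34, 5.89 and 4.14 CPM. Nearest to Pdgfa were Mta3, Akirin2 and Nfx1 (0.15, 0.17 and 0.18), each lowest in knockout library 2, at 38.1, 59.6 and 72.2 CPM.

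**Figure D3:**
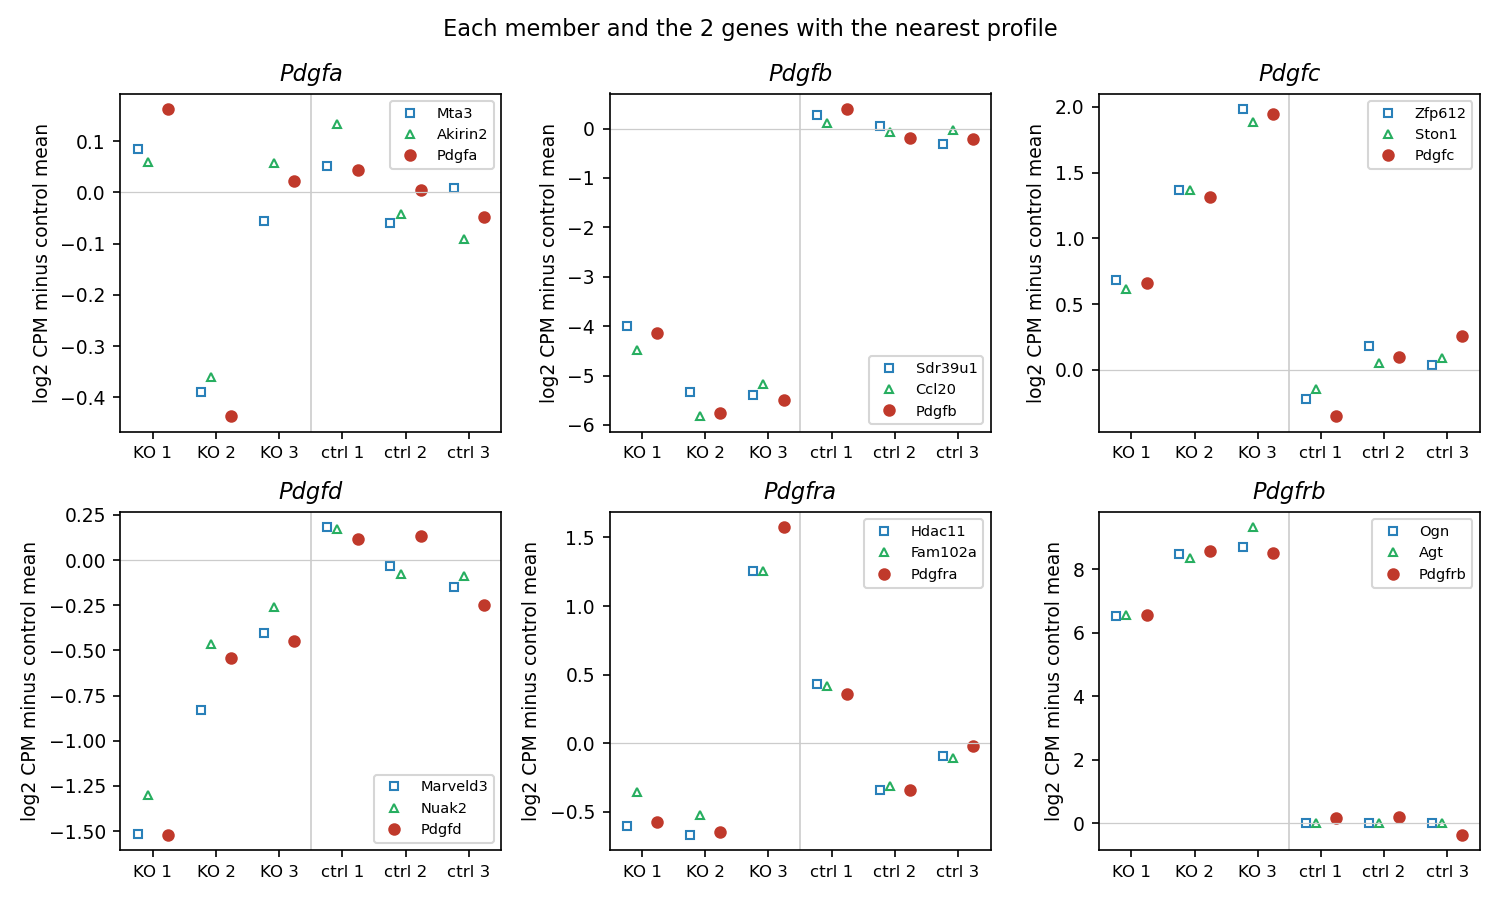
Log2 CPM minus the control mean (y axis) in 3 knockout (KO) and 3 control (ctrl) libraries, for each PDGF gene (filled circles) and the 2 tested genes with the smallest distance to it (open symbols). For Pdgfrb the neighbours are lowest among knockout libraries in library 1, and for Pdgfra they are highest in library 3.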

How the data were processed

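The authors deposited whole-number counts per gene symbol for 6 libraries. The submitters' processing notes name STAR 2.7.1a, featureCounts and hg38 but give them no role. Row names are mouse symbols, and annotation, strandedness and filtering steps are not stated in the labels. Of the rows, 1704 had no count in the first control library but some elsewhere, held multiples of 11 only and were divided by 11 (no PDGF row is among them, and 76 were tested). The test was run in R 4.3.3 with edgeR 4.0.16, using filterByExpr, TMM, robust dispersions, the quasi-likelihood test and Benjamini-Hochberg adjustment over all genes tested, with a threshold of 0.05 and log2 CPM at a prior count of 2. The biological coefficient of variation was 28%. Each SE is the size of the log2 fold change divided by the square root of the quasi-likelihood F statistic. The procedure was tested on simulated data. Named genes are the members, Elavl1, up to 4 genes a list with the smallest p among those that passed, and the 3 nearest profiles per member (some are not reported here); Plau, Nrp1, Lrp1, Pik3r1, Flt4, Csf1, the cell type markers and list genes given as not passed or not tested were chosen after their values were seen. Members and lists were chosen with earlier results of these data known. Alternatives used DESeq2 1.42.0, limma-voom (limma 3.58.1), other scaling, filters and single libraries left out. Sequences are not used here.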

Additional observations from a re-analysis of the deposited data

How the results depend on the processing

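The directions of Pdgfb, Pdgfc, Pdgfd and Pdgfrb held under every alternative run. Pdgfrb had a log2 fold change of 8.10 with a prior count of 2, where it was 9.87. Leaving out 1 library at a time gave log2 fold changes of -0.19 to 0.1 for Pdgfa, -5.92 to -4.8 for Pdgfb, 1.01 to 1.65 for Pdgfc, -1.01 to -0.53 for Pdgfd, -0.67 to 0.86 for Pdgfra and 9.43 to 10.29 for Pdgfrb. The number of genes changed was then 2312 to 6021 (1166 to 3178 higher and 1130 to 2843 lower), where it was 4392 (2493 and 1899). Fewer libraries entered these fits. List counts were 3 to 6 higher and 4 to 5 lower for proteases and binding proteins, 3 to 9 higher and 4 to 7 lower for effectors, 1 to 2 higher and 1 to 2 lower for phosphatases and ligases, 1 to 7 higher and 0 to 3 lower for response genes, and 6 to 8 higher and 2 to 3 lower for related receptors and ligands. Deviations of same-numbered libraries from their group means had correlations of -0.0487, 0.256 and 0.0219. Those of differently numbered libraries lay between -0.249 and 0.192. These values do not settle whether the numbers pair libraries. With the replicate number as a block 3591 genes changed. Of 36 named list genes and markers, all kept their call and direction with the deposited values, other scaling, DESeq2, limma-voom, no filter, the block, or any 1 knockout library left out. With control library 1, 2 or 3 left out, 2, 6 and 4 of the 36 lost their call, and no direction reversed. Anpep was not among the 36. The depth limits the knockout values of Pdgfb (29, 9 and 9 counts), the values of Pdgfd and the control values of Pdgfrb; for Pdgfra the ratio of summed counts had a counting interval of 1.07 to 1.62, and the SE of its log2 fold change was 0.669 over all libraries and 0.357 without knockout library 3.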

Other observations

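Several immediate early genes of the growth factor response list varied more within groups than between them, a pattern picked after the values were seen. Fos had 206, 4.21 and 372 CPM in knockout libraries 1, 2 and 3 and 225, 5.84 and 50 CPM in control libraries 1, 2 and 3. Fosb had 77, 2.01 and 77.9 CPM in knockout libraries and 56.9, 8.5 and 20.7 CPM in control libraries. Egr1 had 70.8, 32.2 and 440 CPM in knockout libraries and 155, 17.6 and 74.9 CPM in control libraries. In both groups library 2 was the lowest for Fos, Fosb, Egr1, Jun and Ier2, whereas Egr3 was lowest in knockout library 1. Of the members, Pdgfra was also lowest in library 2 of both groups, with 1.81 CPM in knockout and 2.26 CPM in control. The next values were 1.91 CPM in knockout library 1 and 2.86 CPM in control library 3. Their 95% counting intervals overlapped those of library 2, so counting error covers this order. Pdgfrb was highest in knockout library 2, with a counting interval that overlapped that of knockout library 3.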
